A study of Mus musculus with 4 samples.

Results

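LIM-only proteins are small adaptors made of LIM zinc-binding domains. They bind no DNA themselves and are carried to it by other factors, to which the LIM domain-binding proteins Ldb1 and Ldb2 tie them. In blood precursors, Lmo2 and Ldb1 join the basic helix-loop-helix factors Tal1 or Lyl1, an E protein and a GATA factor in a complex on regulatory DNA. Lmo1 is best known from T-cell leukaemia and neuroblastoma, and Lmo4 from the mammary epithelium, where it also binds proteins such as Deaf1 and the Brca1 partner Rbbp8.

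The members are Lmo1, Lmo2 and Lmo4, the binding proteins Ldb1 and Ldb2, and the helix-loop-helix factors Tal1 and Lyl1. They were chosen by gene family, and the family was picked with the fall of Lmo1 in the comparison below already known. That comparison is therefore given for the members as a description. The number of member probes past the threshold is given beside the share of all probes, and supports nothing. All probes carrying these gene names were taken, which gave 10 probes for the 7 genes, of 41174 probes for 27670 genes on the array. All 10 passed the filter on dim probes described below, Lmo1 and Tal1 only through the vector arrays.

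The RNA came from 4TO7 cells, a mouse mammary tumour line of BALB/cfC3H origin. Control cells stably carried the retroviral vector pMSCV-puro alone, and the others carried it with an insert that overexpresses miR-23b, miR-27b and miR-24. There are 2 arrays for each of these groups, called transfection replicates of the stable line, and nothing in the labels says that a group holds more than 1 stable line. Cy5 marked the cells on every array, and Cy3 Universal Mouse Reference RNA, a pool from mouse cell lines, so each value below is a log2 ratio of cells over reference unless named otherwise. The array does not read mature microRNAs, so the level of the cluster was not measured here.

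Of miR-23b-3p, miR-27b-3p and miR-24-3p, the mature sequences of the last 2 are given, because they are part of what the second group overexpresses. Capitals mark the seed, bases 2 to 8, which pairs with target transcripts. The sequences are those of RefSeq (GRCm38.p6), and both lie on chromosome 13, from 63300760 to 63300780 for miR-27b-3p and from 63301251 to 63301272 for miR-24-3p, on the plus strand. The seeds of these microRNAs differ from each other.
miR-27b-3p: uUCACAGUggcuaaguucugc
miR-24-3p: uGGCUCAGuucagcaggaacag

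The probes of Lmo4 and Lmo2 that span an intron are shown because they can pair over their whole length only with spliced RNA. Both are 60 bases long. In mm7, the build of the coordinates in the scanner files, the Lmo4 probe covers 4650 bases of genome, chr3:144082241-144086890 on the minus strand, and the Lmo2 probe 4714 bases, chr2:103826971-103831684 on the plus strand.
Lmo4, intron-spanning probe: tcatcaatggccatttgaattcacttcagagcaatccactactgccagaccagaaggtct
Lmo2, intron-spanning probe: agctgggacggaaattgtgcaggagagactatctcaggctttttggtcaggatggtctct

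On each array between 69.9% and 74.8% of gene probes were well above background in Cy5, the scanner program's own flag. Probes with this flag on both arrays of at least 1 group, 30084 in all, were compared with limma, and 9.86% passed an adjusted p of 0.05. The median log2 difference over all of them was -0.005, with quartiles at -0.22 and 0.26. The epithelial keratin genes Krt7, Krt8, Krt18 and Krt19 and the adhesion genes Epcam and Cdh1 were well above background on all 4 arrays. Of these 6 genes, 4 passed the test in limma (5 at an unadjusted p of 0.05). These 4 fell with miR-23b/27b/24, with log2 differences between -4.49 for Krt7 and -2.95 for Cdh1. Krt18 was lower by -1.40 and Krt8 higher by 0.295, and neither passed (adjusted p = 0.0581 and 0.594 in limma). The reference spots of Krt7 and Cdh1 changed as well. Krt7 had Cy3 signals of 9101 and 7032 beside the vector cells against 1601 and 1555. For Cdh1 they were 377.5 and 320.3 against 84.7 and 90.9. Cy3 of Epcam and Krt19 changed far less. In normalized Cy5 alone, Krt7 had mean log2 levels of 16.3 against 9.49, and Cdh1 13.6 against 9.11. Of 5 mesenchymal genes, 4 passed the filter and 0 the test in limma (1 at an unadjusted p of 0.05). In bulk RNA, fewer cells of a type and less RNA per cell cannot be told apart.

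Lmo1 differed far more than any other member. The log2 ratios of its probe were 4.50 and 4.21 with the vector alone, against -0.03 and 0.01 with miR-23b/27b/24. As processed here, the vector cells thus held Lmo1 at about 20.5 times the reference, and the groups lay far apart. The reference spot was dim, and well above background in Cy3 on only 3 of the 4 arrays. As scanned, the Cy5 spot signal was 2627 and 1943 in the vector cells, over local backgrounds of 33 and 35. In the miR-23b/27b/24 cells it was 56.8 and 53.9, over local backgrounds of 37 and 36, and was not well above background on either array.

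The log2 difference of Lmo1 was -4.37 ± 0.15 (SE, n = 2 arrays per group). Each SE given is that of the limma fit, which also draws on the spread of all probes. As a fitted ratio to the reference this was 20.6-fold lower. The signal of the miR-23b/27b/24 cells has only a bound, the lowest Cy5 level well above background on each array. Against it Lmo1 was 31.8-fold lower in the Cy5 channel. The smaller of these 2 values, 20.6-fold, is taken as the bound, and it holds only under this processing. A log2 ratio near 0 on the miR-23b/27b/24 arrays therefore sets a signal at background against a dim reference spot, and is no sign of a level like that of the reference.

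The reference channel of this spot was not constant. Its Cy3 signal was 120.1 and 102.6 beside the vector cells but 58.9 and 48.2 beside the miR-23b/27b/24 cells, although the same reference RNA was used. Cy3 was higher where Cy5 was higher. With normalized Cy5 alone the log2 difference of Lmo1 was -5.02, against -4.37 as a ratio to the reference. What moved the Cy3 signal was not tested. The Lmo1 difference also depended on the background step: with every local background as measured it was -2.88, and with the scanner program's own log ratio -5.78. The Lmo1 probe lies on chromosome 7 from 105053921 to 105053980 on the minus strand (mm7), and it is the array's only probe for the gene.

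**Figure D1:**
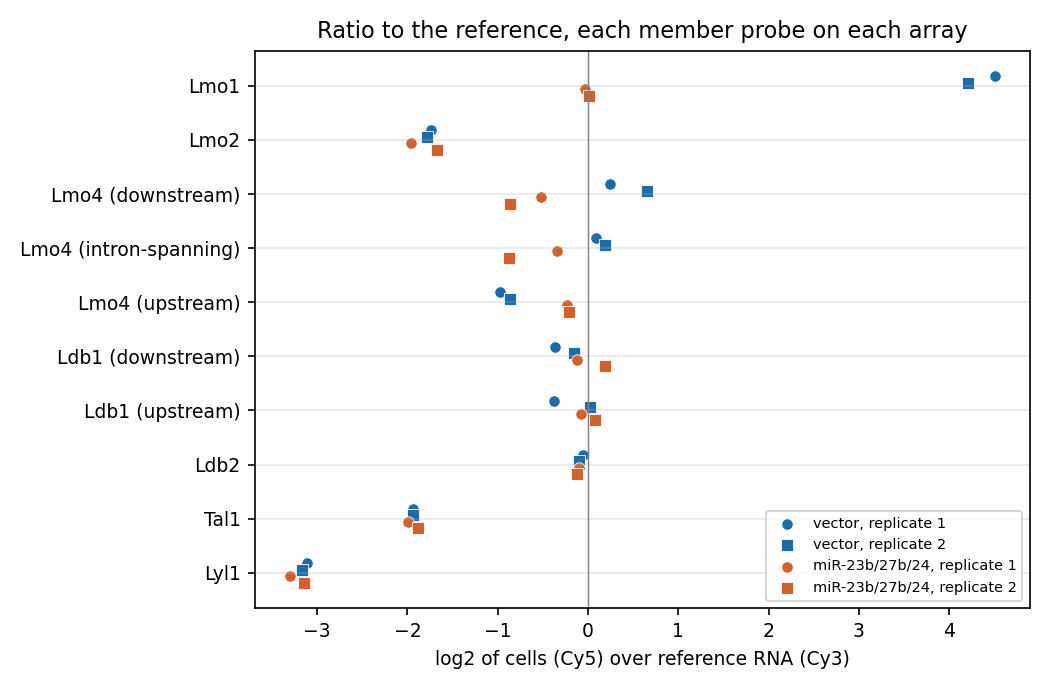
Log2 ratio of cells over reference RNA (horizontal axis) for the 10 member probes (rows), with 1 point per array, vector arrays in blue and miR-23b/27b/24 arrays in orange. Lmo1 stands at 4.50 and 4.21 on the vector arrays and near 0 on the others, the Lmo4 probes shift in both directions, and the points of Tal1, Lyl1, Lmo2 and Ldb2 lie close together.

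The genes with the pattern most like that of Lmo1 were sought by the Euclidean distance between log2 ratios over the 4 arrays, each gene centred on its own mean. The nearest were Dsg2, a desmosomal cadherin, at a distance of 0.07, the membrane serine protease gene Tmprss11e at 0.13, the tetraspanin Tspan1 at 0.17, and the adaptor Grb7 at 0.19. Dsg2 had log2 ratios of 3.94 and 3.62 in the vector cells and of -0.55 and -0.60 in the miR-23b/27b/24 cells. Dsg2, Tmprss11e and Tspan1, like Lmo1, were not well above background on either miR-23b/27b/24 array, while Grb7 was on all 4. These genes were picked for their likeness over only 4 arrays, so the distances are a description, with no test.

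Lmo4, the LIM-only gene of the mammary epithelium, was read by 3 probes, and these did not move together. The downstream probe, which lies nearest the transcript's end (chr3:144081672-144081731, minus strand), had log2 ratios of 0.25 and 0.65 in the vector cells and of -0.52 and -0.86 in the miR-23b/27b/24 cells. Its Cy5 signal was 11710 and 12090 against 5626 and 4441. Both miR-23b/27b/24 arrays lay below both vector arrays, by a log2 difference of -1.14 ± 0.21 (SE, n = 2 arrays per group), or 2.20-fold.

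The intron-spanning probe of Lmo4, whose sequence is given above, pointed the same way. Its log2 ratios were 0.09 and 0.19 in the vector cells and -0.34 and -0.88 in the miR-23b/27b/24 cells. The groups did not overlap here either, but the miR-23b/27b/24 arrays differed from each other by more than the nearer of them differed from the vector arrays. The log2 difference was -0.75 ± 0.21 (SE, n = 2 arrays per group), or 1.68-fold lower.

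The upstream probe of Lmo4 moved the other way. It stands for a clone of embryonic testis RNA named as Lmo4 in the files, and lies 12052 bases upstream of the downstream probe, at chr3:144093724-144093783 on the same strand. Its log2 ratios were -0.98 and -0.86 in the vector cells and -0.23 and -0.20 in the miR-23b/27b/24 cells. The miR-23b/27b/24 arrays were both higher, by 0.70 ± 0.12 (SE, n = 2 arrays per group), or 1.62-fold. The Cy5 signal was 256.4 and 274.8 against 415.9 and 442.3, and well above background throughout. With every local background as measured the difference was 0.32. Whether this probe reads the same transcript as the other Lmo4 probes was not tested.

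The genes most like Lmo4, by its downstream probe, were Nrp2, a receptor for semaphorins and vascular growth factors, at a distance of 0.06, and Ddx24, an RNA helicase, at 0.10. The zinc finger gene Zfp945 was also near, at 0.15. Nrp2 had log2 ratios of 1.80 and 2.15 in the vector cells and of 0.95 and 0.63 in the miR-23b/27b/24 cells. As for Lmo1, likeness over 4 arrays is a description.

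Lmo2, the LIM-only gene of blood precursors and endothelium, was dim in all cells. Its log2 ratios were -1.74 and -1.78 in the vector cells and -1.96 and -1.68 in the miR-23b/27b/24 cells. All 4 arrays lay below the reference, as processed here by 3.39-fold in the vector cells and 3.53-fold in the other cells, and the groups overlapped. The difference was -0.06 ± 0.15 (SE, log2, n = 2 arrays per group). The Cy5 signal was between 76.1 and 88.1 over local backgrounds of 31.5 to 44, so the probe was dim though well above background on all arrays.

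**Figure D2:**
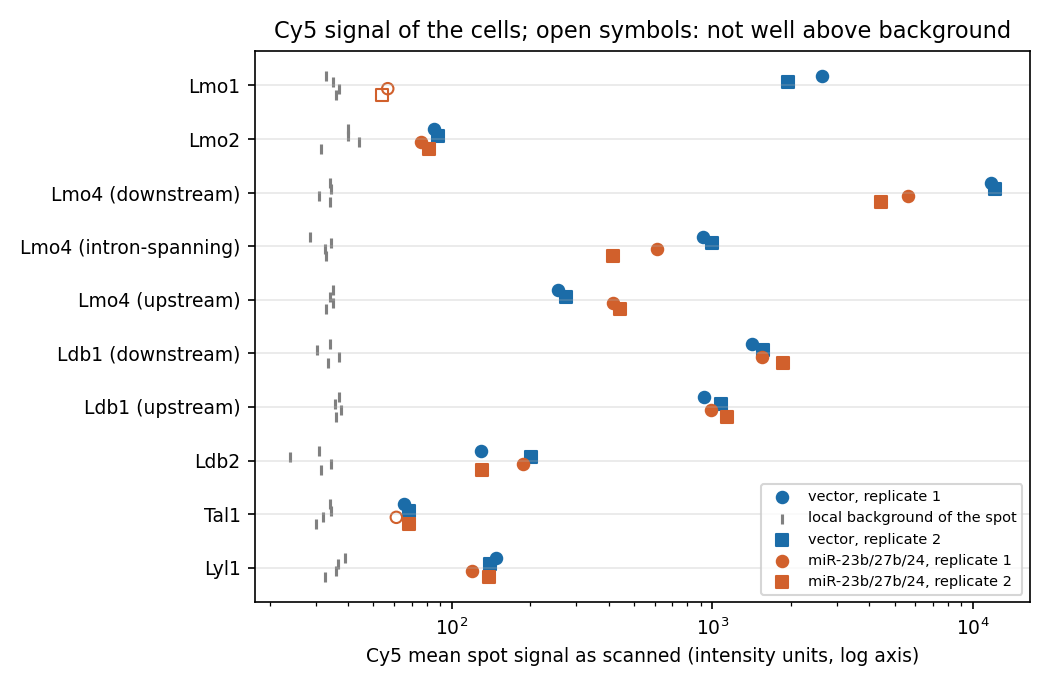
Cy5 spot signal as scanned (log axis, intensity units) of the 10 member probes on each of the 4 arrays, with the local background of each spot as grey ticks; open symbols were not well above background. Lmo1 drops from 2627 and 1943 to 56.8 and 53.9, while Tal1, Lmo2 and Lyl1 are dim on every array.

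Ldb1, the widely expressed binding protein that links LIM-only and LIM homeodomain proteins, was close to the reference in both groups. Its downstream probe (chr19:45929631-45929690, minus strand) had log2 ratios of -0.36 and -0.16 in the vector cells and of -0.13 and 0.19 in the miR-23b/27b/24 cells. The groups did not overlap, but only by the gap between -0.16 and -0.13, and the difference was 0.29 ± 0.17 (SE, n = 2 arrays per group). The upstream probe, at chr19:45929754-45929813, gave -0.38 and 0.02 against -0.08 and 0.08, which overlap, with a difference of 0.18 ± 0.18 (SE, n = 2 arrays per group). Cy5 signals of the Ldb1 probes ran from 932.0 to 1870, well above background on all arrays.

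Ldb2, the paralog of Ldb1, had log2 ratios of -0.05 and -0.10 in the vector cells and of -0.10 and -0.12 in the miR-23b/27b/24 cells. All 4 values lay close together just below the reference, and the difference was -0.04 ± 0.12 (SE, n = 2 arrays per group). The arrays themselves varied less, with standard deviations of 0.034 in the vector cells and 0.014 in the others. Its spot signals alone would have shown more spread, with Cy5 at 129.4 and 201.9 in the vector cells and 188.1 and 130.5 in the others. The Cy3 signal of the same spots ran along with it, at 171.3, 257.9, 240.2 and 162.2, so the ratio was steady where the single channel was not.

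Tal1, the helix-loop-helix factor at the head of blood formation, and its relative Lyl1 were below the reference on every array. As processed here this was 3.84-fold and 8.82-fold in the vector cells. The background offset described below draws such ratios toward 0. Tal1 had log2 ratios of -1.94 and -1.94 in the vector cells and of -1.99 and -1.88 in the miR-23b/27b/24 cells, a difference of 0.01 ± 0.12 (SE, n = 2 arrays per group). Its Cy5 signal was between 61.2 and 68.5 and was not well above background on miR-23b/27b/24 replicate 1. Lyl1 had log2 ratios of -3.11 and -3.17 in the vector cells and of -3.30 and -3.14 in the others, a difference of -0.08 ± 0.13 (SE, n = 2 arrays per group), with Cy5 between 119.4 and 147.8. For both genes the arrays of the groups overlapped.

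The values of these dim genes also moved with the background step. With every local background as measured, the log2 differences were -0.96 for Lmo2, -1.02 for Tal1 and -1.12 for Lyl1. With the scanner program's log ratio they were -0.28, -0.23 and -0.23. Differences of that size in these genes were thus not resolved at this signal.

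**Figure D3:**
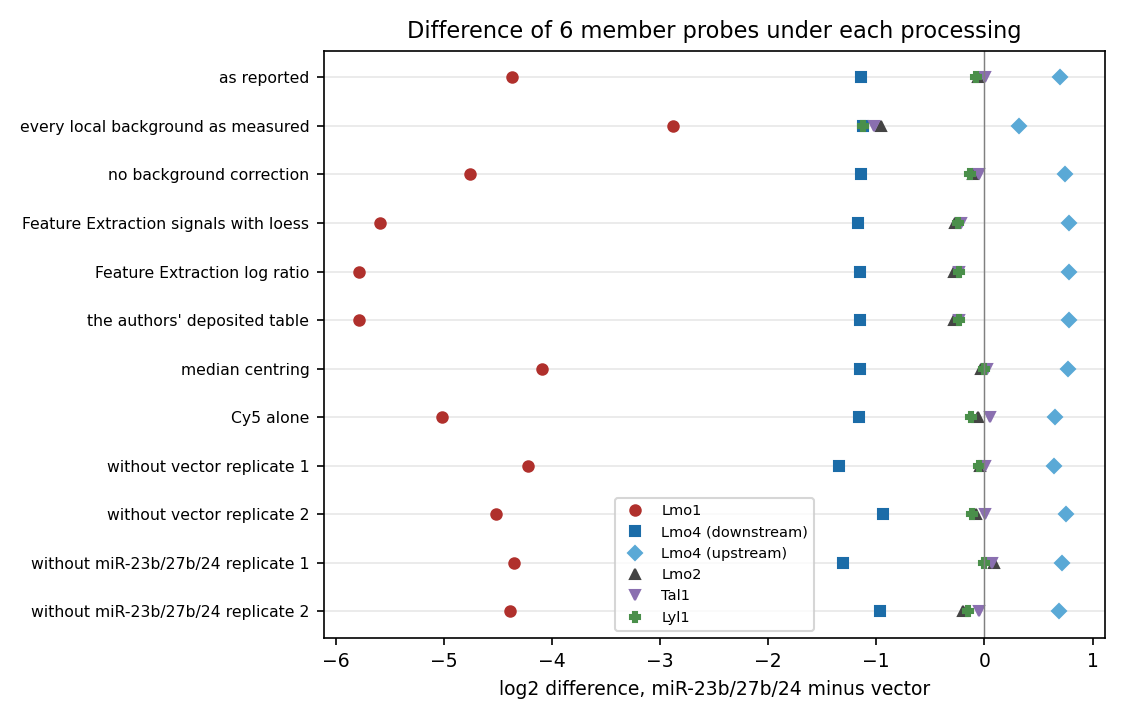
Log2 difference, miR-23b/27b/24 minus vector (horizontal axis), of 6 member probes under the processing used here (top row), under other processing and without each array in turn (rows below). Lmo1 lies between -5.78 and -2.88, the downstream and upstream probes of Lmo4 stay on opposite sides of 0, and Lmo2, Tal1 and Lyl1 are farthest from 0, at -0.96, -1.02 and -1.12, with every local background as measured.

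Markers of the cells in which Lmo2, Tal1 and Lyl1 are usually found were counted beside them. Of 15 blood genes on the array 12 passed the filter on dim probes. The summed Cy5 level of those 12 genes, after normalization, was 5611 and 5494 in the vector cells and 4233 and 4188 in the miR-23b/27b/24 cells. Without Cd68 the sum of the other 11 was 3339 and 3730 against 3505 and 3547, which overlap. Of the 12, only Cd68, a lysosomal protein abundant in macrophages, passed the test, with a log2 difference of -1.68 ± 0.14 (SE, 2 arrays a group, adjusted p = 0.00658 in limma). Of 10 endothelial genes 7 passed the filter and 0 the test in limma (0 at an unadjusted p of 0.05), and of 10 neural genes 7 and 0 (1 unadjusted). The endothelial sum was 2401 and 1767 in the vector cells against 1618 and 1603, and the neural sum 1591 and 1543 against 1549 and 1787. Egfl7 was by far the brightest endothelial gene, with Cy5 spot signals of 1575 and 810.8 against 753.9 and 750.9. The next, Vwf, reached at most 157.0. The neuronal genes Dcx and Gap43 were not well above background on any array, while Tubb3 and Map2 were on all 4. The part of other cell types in the members' values was not tested.

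Taking the members as a set, 3 of 10 probes passed an adjusted p of 0.05 in limma, against 9.86% of all probes. Of the 3, 2 were lower, as were 4.44% of all probes, and 1 was higher, as were 5.41%. For 6 of the 10 the vector arrays lay wholly to one side of the others, as for 60% of all probes tested. Since this comparison led to the choice of the family, nothing is read from these counts. With every local background as measured the number was 0 of 10 in limma (3 at an unadjusted p of 0.05), and it was 1 without miR-23b/27b/24 replicate 1 and also without replicate 2.

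The other genes with which LIM proteins work came from lists drawn up with earlier results known, so their counts are a description. Of 55 such genes 47 passed the filter, and each was read at its brightest probe in the limma fit of all 30084 probes, where 1 rose and 4 fell. Over all genes 5.11% of brightest probes rose and 4.95% fell. The median log2 difference of the 47 was -0.05, against -0.03 over all genes. Without miR-23b/27b/24 replicate 1 none of the 47 passed (8 at an unadjusted p of 0.05), without replicate 2 it was 1, and without vector replicate 1 it was 9.

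Among 15 measured core partners of the blood complex, among them E proteins, GATA factors, single-strand DNA-binding proteins that stabilise Ldb1, co-repressors, Runx1, the ubiquitin ligase Rlim and Lmo3, 1 rose, 0 fell and 14 did not pass. Lmo3, a LIM-only gene outside the members, had log2 ratios of 0.16 and -0.04 in the vector cells and of -0.31 and 0.07 in the others, which overlap. The one that rose was Gata2, a GATA factor of stem and progenitor cells, with log2 ratios of -1.45 and -1.67 in the vector cells and of -0.73 and -0.42 in the miR-23b/27b/24 cells. All 4 were below the reference, and Gata2 was 1.98-fold higher in the miR-23b/27b/24 cells (log2 difference 0.98 ± 0.17 SE, 2 arrays a group, adjusted p = 0.0331 in limma). Its other probe had the same sign. With every local background as measured, Gata2 differed by 0.36 and did not pass (limma, adjusted p = 0.586), nor did it without miR-23b/27b/24 replicate 1 or 2 (adjusted p = 0.140 and 0.171). Gata3, the GATA factor of the luminal mammary epithelium, was above the reference on all arrays, at 2.81 and 2.40 in the vector cells and at 2.02 and 2.60 in the others, and did not pass.

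Of 9 measured Lmo4 partners 1 fell, 0 rose and 8 did not pass. Esr1, the oestrogen receptor, had log2 ratios of 1.496 and 1.741 in the vector cells and of -1.14 and -0.60 in the miR-23b/27b/24 cells. It was 5.62-fold lower (log2 difference -2.49 ± 0.22 SE, 2 arrays a group, adjusted p = 0.00779 in limma), and its other probe had the same sign. The Cy5 signal fell from 526.4 and 628.0 to 65.5 and 108.0, the latter over local backgrounds of 34.1 and 34.6. The size thus depended on the background step, and with the scanner program's log ratio it was -3.715. Esr1 missed the threshold where each spot kept its own background (-1.82, adjusted p = 0.0907 in limma) and without miR-23b/27b/24 replicate 1 (-2.22, adjusted p = 0.0502).

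Of 9 measured LIM homeodomain genes, the other class of proteins that Ldb1 binds, 0 passed in limma (1 at an unadjusted p of 0.05). Those with the smallest p were Lhx6, with a log2 difference of -0.88 ± 0.24, and Isl2, with 0.30 ± 0.15 (SE, 2 arrays a group, adjusted p = 0.0864 and 0.258 in limma). With the replicate number as a block, Lhx6 had an adjusted p of 0.0479 in limma.

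Of 14 other measured genes for LIM domain proteins, which act mostly at the cytoskeleton and at adhesions, 3 fell, 0 rose and 11 did not pass. Lims2, a partner of integrin-linked kinase, was 3.96-fold lower (log2 ratios 1.23 and 0.40 against -0.72 and -1.63, limma adjusted p = 0.0466). Lmo7, a large junctional LIM protein that is no LIM-only protein despite its symbol, was 2.21-fold lower (-0.04 and -0.35 against -1.17 and -1.50, limma adjusted p = 0.0289). Fhl2, a protein made of LIM domains alone, was 2.09-fold lower (1.35 and 1.23 against 0.40 and 0.05, limma adjusted p = 0.0268). Lmo7 had 2 other probes, of which 1 had the same sign. Each of the 3 missed the threshold with every local background as measured, with median centring in place of loess, and without either miR-23b/27b/24 array, and Lims2 also with no filter on dim probes and with 1 brightest probe a gene.

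**Figure D4:**
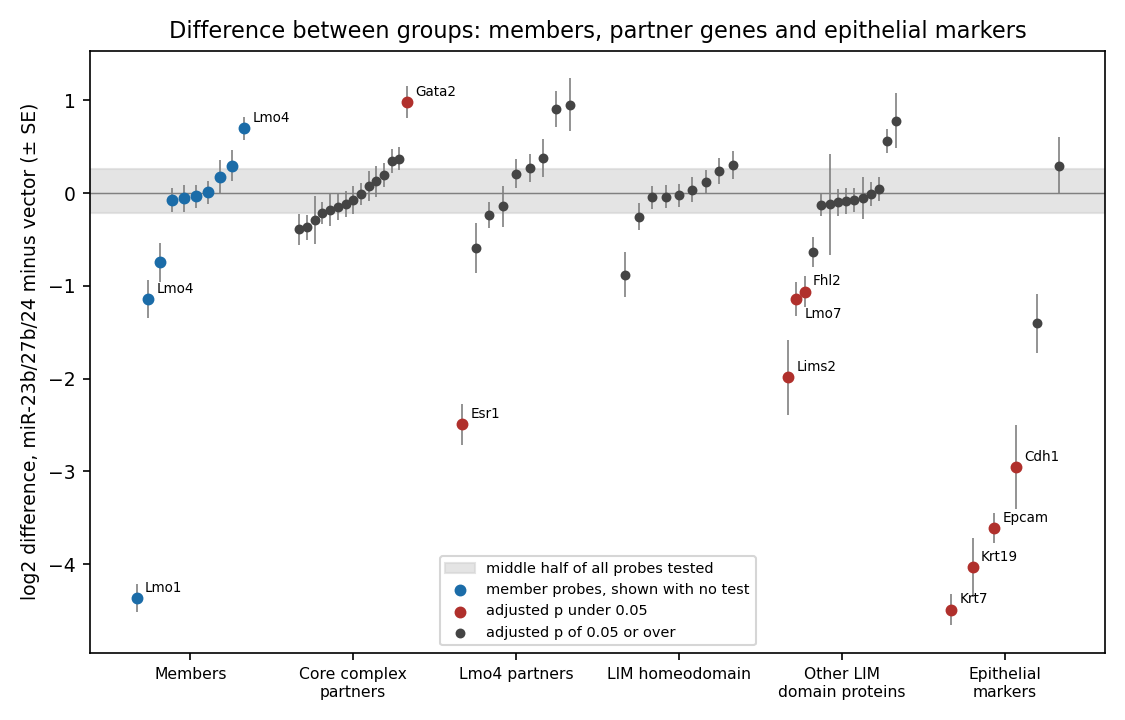
Log2 difference, miR-23b/27b/24 minus vector, with the SE of the limma fit (n = 2 arrays per group), for the 10 member probes, the 4 partner lists and the 6 epithelial markers. Member probes are blue, with no test shown by colour, and the other genes red where the adjusted p was under 0.05. Gene names mark an adjusted p under 0.05, also among the members, where nothing is read from it. The grey band spans the quartiles of all probes tested, -0.22 to 0.26. By these ratios to the reference, Lmo1, at -4.37, lies in the range of the epithelial markers that fell. Most partner genes lie in or near the band.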

How the data were processed

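Each of 4 arrays was read in 2 colours, and Agilent Feature Extraction 9.5.3.1, named in the headers, wrote the deposited spot and local background intensity, processed intensity and the log10 ratio of Cy5 over Cy3, per the file headers. The deposited value table holds log2 ratios, which matched that ratio centred on each probe's median within 0.001 for 87.6% to 88.1% of values (column medians -0.017 to 0.022). The tool behind this table is named neither in the labels nor in the file headers.

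In R 4.3.3 with limma 3.58.1, local backgrounds marked as outliers were replaced by the array's median, followed by normexp with an offset of 50, loess with weight 0 for control spots, removal of control and outlier spots, and averaging of spots. The offset draws low ratios toward 0. Probes were named through RefSeq accession (22951), symbol (6659) or synonym (3109); 8455 kept the file's name. All probes passing the filter were fitted with lmFit and eBayes, with Benjamini-Hochberg adjustment. In all, 15 alternatives in background, scaling, filter, probes per gene, block and left-out arrays were tried. The members, lists and settings were chosen with earlier results of these data known. Named were all members, from each partner list up to 4 called genes or the 2 with the smallest p, and the 4 genes most like Lmo1 and Lmo4; some genes under this rule are not reported here. Without a statement that replicates came from separate cultures, p-values measure the spread between these arrays. All arrays share 1 slide and scan, so neither could be a block. Replicate numbers were not taken as pairs: deviations of same-numbered arrays correlated at 0.07 over probes.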

Additional observations from a re-analysis of the deposited data

How the results depend on the processing

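Lmo1 kept its sign in all 14 alternatives that give it a value (the filter for probes well above background on all 4 arrays removes it): its log2 difference was -4.09 with median centring, -4.76 with no background correction, -5.02 with Cy5 alone, -5.59 with loess on Feature Extraction signals, -2.88 where every spot kept its own background as measured, and -5.78 with both the Feature Extraction log ratio and the authors' deposited table. Without 1 array it lay between -4.51 and -4.22. Of the member probes 3 were called, beside 9.86% of all probes. Where every spot kept its own background, 0 were called (3 at an unadjusted p of 0.05 in limma). Nothing is read from these counts. Among partner genes 5 were called, 0 with every local background as measured (13 at an unadjusted p of 0.05 in limma), 2 with median centring, and 0 to 9 without 1 array. Over the whole array 2966 probes were called, 884 with every local background as measured, 1929 with 1 brightest probe a gene, and 251 to 6836 without 1 array (251 and 264 without miR-23b/27b/24 replicate 1 and 2, 6836 without vector replicate 1). With the replicate block, 3 member probes and 7 partner genes were called, the latter with Lhx6 and Rbbp8 added, beside 3257 probes over the whole array. None of the called members or named partner genes changed sign in any alternative. Over all scalings the median difference of all probes lay between -0.027 and 0.02. With 2 arrays per group and signals near background, small differences of Lmo2, Tal1 and Lyl1 cannot be measured. Where leaving out 1 array left a lone one, it took the spread of the other group.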
